A study of Mus musculus with 8 samples.

Results

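Radial glia are the stem cells of the embryonic brain, and the genes described here are 10 markers by which they and cultured neural stem cells are commonly recognised. The set was fixed by name, and its members were found by matching the Ensembl identifiers of the expression table to mouse gene symbols. All 10 members were found among 15538 measured genes: Nes, Vim, Fabp7, Slc1a3, Hopx, Prom1, Ednrb, Nr2e1, Msi1 and Msi2. Gene expression had been measured by bulk RNA sequencing of polyadenylated RNA from primary mouse neural stem cells of embryonic brain, grown as neurospheres, which are floating balls of dividing progenitors. By the labels, 4 libraries carried the genotype Phf23-/-, a homozygous loss of a PHD-finger chromatin protein, and 4 were wild type (WT). The series was made to find how the cells' differentiation becomes blocked when Phf23 is lost. No agent, age, strain or Cre driver is given in the labels, nor whether the libraries came from separate embryos or cultures, so p-values here rest on library-to-library spread alone, and that spread may be technical.

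Radial glia span the wall of the embryonic brain with long fibres, divide at the ventricle and give rise to neurons and later to astrocytes and oligodendrocytes. Nestin and vimentin, encoded by Nes and Vim, form the intermediate filaments of the fibre. Fabp7 encodes the brain fatty acid binding protein and Slc1a3 the glutamate transporter GLAST, both kept by astrocytes. Hopx encodes a small homeodomain protein that does not bind DNA and marks outer radial glia in the human cortex, and Prom1 encodes the membrane glycoprotein CD133. Ednrb encodes endothelin receptor B, Nr2e1 the orphan nuclear receptor TLX that keeps neural stem cells dividing, and Msi1 and Msi2 the RNA-binding Musashi proteins.

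The libraries labelled Phf23-/- held 18099114 to 19462516 recovered reads each, and WT libraries 15647304 to 18241215. Phf23 itself went against its label, with 1481 ± 108 normalised reads in the libraries labelled Phf23-/- and 798 ± 85.4 in WT libraries (SD, n = 4 each, limma-trend FDR = 0.000581). Where only part of a gene is removed, its summed reads are no check of the genotype. Whether the labels were exchanged, which would turn every direction below, was not tested, so directions are between libraries as labelled. Transcript length moved with the label: the slope of a library's log2 values on log2 transcript length was -0.24, -0.31, -0.09 and 0.04 in the libraries labelled Phf23-/- 1 to 4, against 0.26, 0.20, 0.08 and 0.06 in WT 1 to 4. Long transcripts thus had relatively fewer reads in most of the libraries labelled Phf23-/-, and the change of each of the 10 genes is given also after a trend with length and GC content was subtracted from every library, and from replicates 3 and 4 alone, whose slopes were the least steep.

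Markers of the lineages that the cultures could hold were unevenly represented. Beside the counts called in each list below stand 14.8% of all genes called higher and 14.8% called lower (limma-trend FDR under 0.05). Sox2 and Pax6, transcription factors of neural progenitors, averaged 6574 and 488 normalised reads among libraries labelled Phf23-/-, against 5005 and 459.9 in WT libraries. Both overlapped between the groups and neither was called (limma-trend FDR = 0.0506 and 0.563). Oligodendrocyte lineage markers were measured for 10 of 10 genes, with summed levels of 62807 to 76220.2 normalised reads in the libraries labelled Phf23-/- and 50412 to 71979 in WT libraries, led by Olig1, Olig2 and Cspg4, and 6 were called higher and 1 lower. Astrocyte markers had 6 of 7 genes measured, at 7964 to 8798 in the libraries labelled Phf23-/- and 9287 to 10147 in WT libraries, led by Slc1a2, Aldh1l1 and Aldoc, with 3 called higher and 3 lower. Neuronal markers summed to 10519 to 13363 in the libraries labelled Phf23-/- and 16648 to 22292 in WT libraries for 10 of 10 genes, led by Map2, Elavl4 and Syt1, with 2 called higher and 2 lower. The lower sums of these 2 lists do not mean that most of their genes fell. The median log2 fold change was 0.20 for astrocyte and 0.03 for neuronal markers, and 0.33 and 0.04 with the length and GC trend subtracted. Slc1a2 was at -0.38, and at 0.15 with that trend subtracted. Markers of intermediate progenitors (5 of 6 measured, led by Btg2, Elavl3 and Insm1) summed to 2663 to 2819.7 in the libraries labelled Phf23-/- and 2109 to 2404 in WT libraries, with 1 called higher and 0 lower. Neurog2, a proneural gene of that list, was listed at 0 in all 4 WT libraries and in Phf23-/- 2. Ependymal markers (4 of 6 measured, led by Foxj1, Ccdc153 and Mia) summed to 501 to 537 in the libraries labelled Phf23-/- and 317 to 549 in WT libraries, with 1 called higher and 0 lower. Endothelial markers (5 of 7, led by Kdr, Flt1 and Pecam1), pericyte and fibroblast markers (4 of 8, led by Acta2, Col1a1 and Rgs5), neural crest and melanocyte markers (5 of 6, led by Mitf, Dct and Tfap2a) and microglial markers (1 of 7, P2ry12) summed to at most 177 normalised reads in any library. In those 4 lists, 1 endothelial gene was called higher and 1 lower, and no other marker was called. The part of the neuronal, astrocyte and oligodendrocyte markers in the results below was not tested. In bulk RNA, fewer cells of a type and less RNA per cell cannot be told apart.

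The 10 genes together took 1.02% ± 0.0632 of all normalised reads in the libraries labelled Phf23-/- and 0.878% ± 0.0202 in WT libraries (SD, n = 4 each). Levels were compared between genes per length, as normalised reads per kb of the longest annotated transcript. On that scale Fabp7 and Vim stood at the 99.95 and 99.92 percentiles of all genes with a known length, Ednrb, Slc1a3 and Nes at 98.7, 98.6 and 98.01, and Prom1 at 39.5. The order in WT libraries was Fabp7 with 30664 ± 2355, Vim with 23171 ± 1481, Ednrb with 3918 ± 289, Slc1a3 with 3900.1 ± 383, Nes with 3086 ± 284, Msi2 with 761 ± 62.5, Msi1 with 437 ± 46.1, Hopx with 315 ± 37.0, Nr2e1 with 167 ± 15.5 and Prom1 with 58.8 ± 4.09 reads per kb (SD, n = 4). Only the neighbours Ednrb and Slc1a3 overlapped between WT libraries. In the libraries labelled Phf23-/- the same 5 genes led, with 47551 ± 8909 reads per kb for Fabp7 and 29728 ± 5125 for Vim, and Msi2 stood below Msi1 and Hopx. There Msi1 had 595 ± 60.5 reads per kb, Hopx 526 ± 109 and Msi2 480.1 ± 92.5, and these neighbours overlapped. In reads not divided by length, Msi2 lay above Msi1 in every library. The place of Msi2 below Msi1 thus rests on the transcripts chosen, of 6436 nt for Msi2 and 3133 nt for Msi1. The longest annotated Vim transcript has 2926 nt and the longest coding one 2193 nt. On the coding length Vim had 39665 reads per kb in the libraries labelled Phf23-/- and 30915 in WT libraries, which puts it level with Fabp7 in WT libraries, so their order rests on the transcript chosen.

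**Figure D1:**
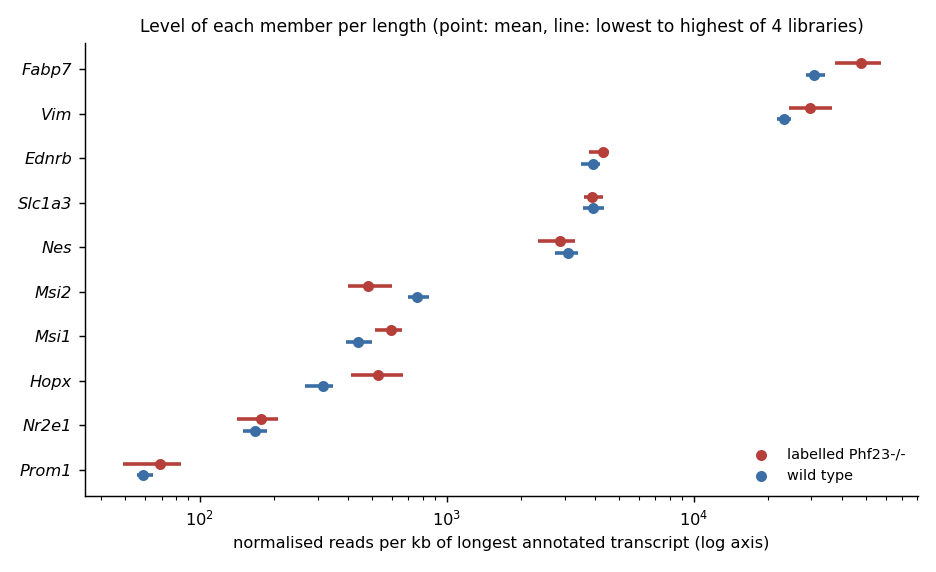
Normalised reads per kb of the longest annotated transcript (log axis) for the 10 genes, with the mean as a point and the lowest to highest of 4 libraries as a line, for the libraries labelled Phf23-/- and for WT libraries. Fabp7 and Vim lie above the other 8 genes in every library, and Prom1 lies below 100 in all 8 libraries. On this length scale Msi2 lies above Msi1 in WT libraries and below it in those labelled Phf23-/-.

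By limma-trend over all 15538 genes, 3 of the 10 genes were called higher (Fabp7, Hopx and Msi1) and 1 was called lower (Msi2) at a false discovery rate (FDR) under 0.05. Of all genes tested, 14.8% were called higher and 14.8% lower, so that 4 of 10 called stands beside 29.6% of all genes, a share near the background. The median log2 fold change was 0.17 over the 10 genes and 0.00055 over all genes, with 7 of the 10 positive. The groups did not overlap for the same 4 genes, against 27.7% of all genes. Each of the 4 calls held when any 1 library was left out.

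Fabp7 (ENSMUSG00000019874, mm10 chromosome 10, 57784881 to 57788450, plus strand), the lipid-binding protein gene of radial glia, stood with Vim at the top of the 10 per length, and it rose. It had, in the libraries labelled Phf23-/- 1 to 4, 46101, 50288, 38178 and 32813 normalised reads, against 25125, 26737, 29928 and 26145 in WT 1 to 4. Every library labelled Phf23-/- lay above every WT library, and Phf23-/- 4 lay nearest to them. Fabp7 averaged 41845 ± 7840.3 normalised reads in the libraries labelled Phf23-/- and 26984 ± 2073 in WT libraries (SD, n = 4 each), a ratio of 1.55, with a log2 fold change of 0.62 ± 0.136 (SE, 95% interval 0.32 to 0.91, limma-trend FDR = 0.00923). Its transcript is short, at 880 nt, and the median log2 fold change was 0.52 in the shortest of 10 equal classes of transcript length, 297 to 1473 nt. Fabp7 lay inside the interquartile range of that class, 0.27 to 0.73. With the length and GC trend subtracted, Fabp7 stood 0.41, 0.30, 0.31 and 0.27 above the WT mean on the log2 scale in the libraries labelled Phf23-/- 1 to 4, against -0.08, -0.00, 0.08 and -0.00 in WT 1 to 4. It remained called there at 0.32 ± 0.0655 (FDR = 0.00445) and with replicates 3 and 4 alone at 0.34 (FDR = 0.0306).

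Hopx (ENSMUSG00000059325, mm10 chromosome 5, 77086988 to 77115121, minus strand), the homeodomain gene, rose in the same libraries. It had, in the libraries labelled Phf23-/- 1 to 4, 683, 842, 611 and 516 normalised reads, against 337, 385, 438 and 430.2 in WT 1 to 4. The groups did not overlap, and Phf23-/- 2 was the highest. Hopx averaged 663 ± 138 and 397 ± 46.7 normalised reads in the libraries labelled Phf23-/- and in WT libraries (SD, n = 4 each), a ratio of 1.67 and a log2 fold change of 0.72 ± 0.151 (95% interval 0.40 to 1.05, limma-trend FDR = 0.00758). At 1261 nt its transcript falls in the same shortest length class as that of Fabp7. Hopx also lay inside the interquartile range of that class, 0.27 to 0.73. With the trend subtracted Hopx was at 0.44 ± 0.0953 (FDR = 0.00618), and with replicates 3 and 4 alone at 0.37, where it was no longer called (FDR = 0.0679). An annotated antisense gene, Hopxos, shares 412 exon bases with Hopx, and reads of both cannot be told apart, because use of strand is not given in the sources used here.

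Fabp7, Hopx and Vim had the same order among the libraries labelled Phf23-/-, with replicate 2 highest, then 1, 3 and 4. That is also the order of their length slopes, with the steepest negative slope first.

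**Figure D2:**
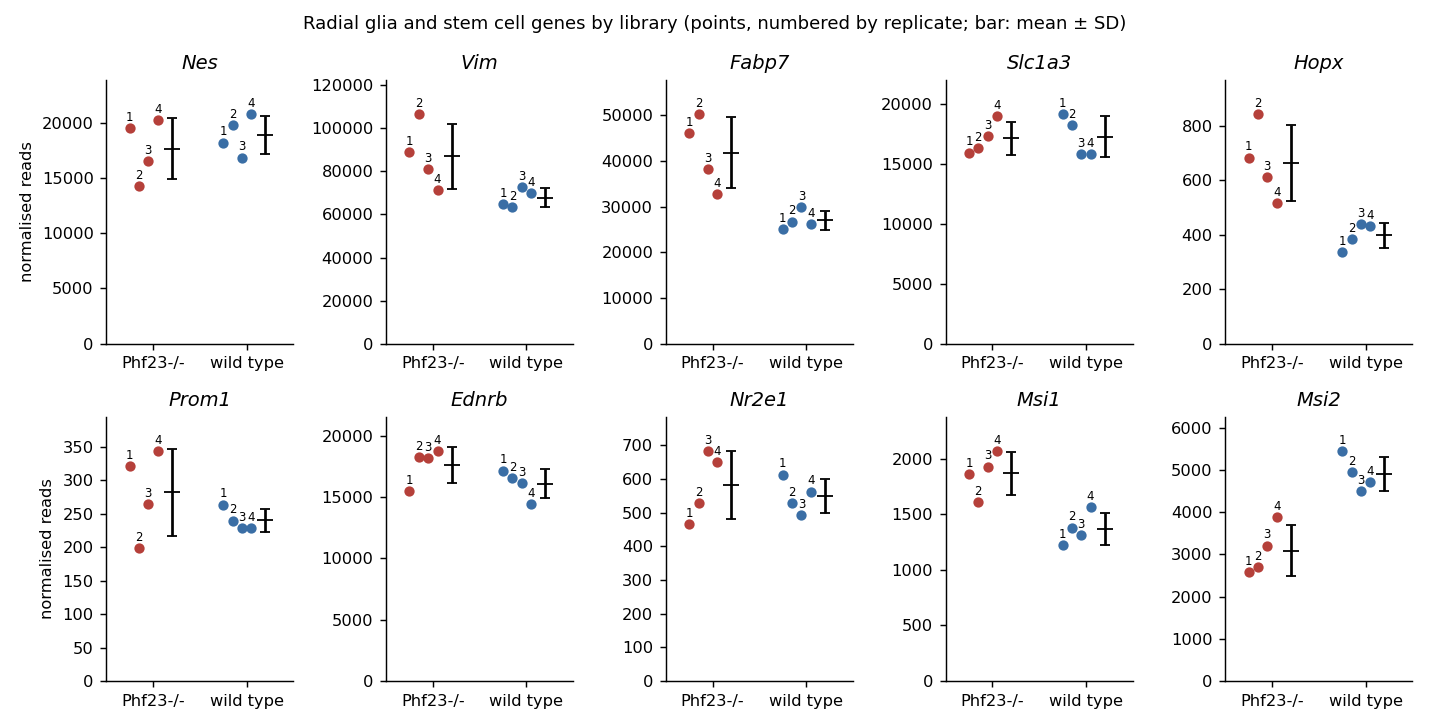
Normalised reads of the 10 genes in every library, with libraries labelled Phf23-/- left of WT, points numbered by replicate, and the mean ± SD of 4 libraries as a bar. The groups separate for Fabp7, Hopx, Msi1 and Msi2, and Vim is separated except for Phf23-/- 4.

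The 2 genes with the largest increases on deposited values, Hopx and Fabp7, are shown with the sequence upstream of their starts. RefSeq promoter windows (build GRCm38.p6) were matched for 9 of the 10 genes, all but Msi1, and the 250 bases upstream of each start were searched for CANNTG, the E-box bound by basic helix-loop-helix proteins, and for TGGGAA on both strands, the core of the site bound by the Notch partner RBPJ. The Fabp7 stretch is chr10:57784673-57784880 on the plus strand, ending where the first annotated exon begins, and the Hopx stretch is chr5:77115124-77115373 on the minus strand, upstream of the outer of its 2 starts. Capitals mark CANNTG.
Fabp7: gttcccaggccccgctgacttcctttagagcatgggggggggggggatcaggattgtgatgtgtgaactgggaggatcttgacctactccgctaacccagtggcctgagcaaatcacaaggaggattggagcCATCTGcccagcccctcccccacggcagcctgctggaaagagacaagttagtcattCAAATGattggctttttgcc
Hopx: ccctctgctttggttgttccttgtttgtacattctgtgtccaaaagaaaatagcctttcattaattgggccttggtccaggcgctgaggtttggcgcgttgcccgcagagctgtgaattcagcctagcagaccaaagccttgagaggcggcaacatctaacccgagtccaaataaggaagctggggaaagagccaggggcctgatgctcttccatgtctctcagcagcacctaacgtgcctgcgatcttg
Fabp7 held CATCTG and CAAATG, 118 and 62 bases upstream of its RefSeq start, and the Hopx stretch held no match. CANNTG is common, with a match in 66.2% of 32851 windows of the same length, and TGGGAA matched 21.6% of them. The window of the inner Hopx start held CACGTG. The 3 windows of Msi2, which fell, overlapped each other and held the same CACGTG site. The innermost of them also held a further CACGTG, 43 bases upstream of its start. Among genes that were not called, Prom1 held CACCTG, Nr2e1 CACATG and Slc1a3 CAGTTG, while Vim, Nes and Ednrb held no CANNTG. The Hopx and Msi2 windows with CACGTG overlap annotated exons and are not printed. TGGGAA matched in the windows of Fabp7, Nr2e1 and the outer start of Prom1. A match is a description of these letters and not a binding site.

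Msi1 and Msi2, the Musashi paralogs, changed in opposite directions. Msi1 (ENSMUSG00000054256, mm10 chromosome 5, 115429599 to 115455698, plus strand) had, in the libraries labelled Phf23-/- 1 to 4, 1861, 1611, 1927 and 2063 normalised reads, against 1223, 1379, 1312 and 1564 in WT 1 to 4. The groups did not overlap, although Phf23-/- 2 and WT 4 were close. Msi1 averaged 1866 ± 189 normalised reads in the libraries labelled Phf23-/- and 1369 ± 144 in WT libraries (SD, n = 4 each), a ratio of 1.36, with a log2 fold change of 0.45 ± 0.110 (95% interval 0.21 to 0.68, limma-trend FDR = 0.0133). Genes of like transcript length (3003 to 3475 nt, against 3133 nt for Msi1) had a median log2 fold change of 0.04. Msi1 was at 0.26 ± 0.0822 with the trend subtracted (FDR = 0.0414), where Phf23-/- 2 fell below WT 2, and at 0.48 with replicates 3 and 4 alone (FDR = 0.000675).

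Msi2 (ENSMUSG00000069769, mm10 chromosome 11, 88339382 to 88718513, minus strand) had, in the libraries labelled Phf23-/- 1 to 4, 2572, 2698, 3208 and 3882 normalised reads, against 5439, 4945, 4500.3 and 4718 in WT 1 to 4. Every library labelled Phf23-/- lay below every WT library. Msi2 averaged 3090.1 ± 595 and 4901 ± 402 normalised reads in the libraries labelled Phf23-/- and in WT libraries (SD, n = 4 each), a ratio of 0.631 and a log2 fold change of -0.68 ± 0.130 (95% interval -0.96 to -0.40, limma-trend FDR = 0.00577). Its longest transcript has 6436 nt, and genes of 5437 to 6991 nt had a median log2 fold change of -0.32. Msi2 was the only one of the 10 below the median of its length class. It remained called with the trend subtracted, at -0.28 ± 0.0765 (FDR = 0.0203), and with replicates 3 and 4 alone, at -0.38 (FDR = 0.00684).

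Because a library's scaling cancels in a ratio of 2 genes, the Musashi pair was also compared within each library. Reads of Msi1 over reads of Msi2 were 0.723, 0.597, 0.601 and 0.532 in the libraries labelled Phf23-/- 1 to 4, against 0.225, 0.279, 0.292 and 0.331 in WT 1 to 4. The groups did not overlap, and the difference was 1.13 on the log2 scale (two-sided exact permutation p = 0.0286, the smallest that 4 against 4 libraries allow, and 0.0571 when adjusted over the 2 ratios examined). Each gene alone already separated the groups, in opposite directions, so the ratio had to separate them. Its p therefore adds nothing to the calls of Msi1 and Msi2. Subtracting the trend of length and GC content gave a difference of 0.54, and it was 0.86 with replicates 3 and 4 alone. The Nes over Vim ratio, 0.210 ± 0.0618 in the libraries labelled Phf23-/- and 0.280 ± 0.0349 in WT libraries (SD, n = 4 each), overlapped between the groups and differed by -0.45 on the log2 scale (two-sided exact permutation p = 0.0857, the same when adjusted over the 2 ratios). It was -0.29 with the trend subtracted (exact permutation p = 0.143 when adjusted), -0.12 with replicates 3 and 4 alone, and -0.25 without Phf23-/- 2.

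**Figure D3:**
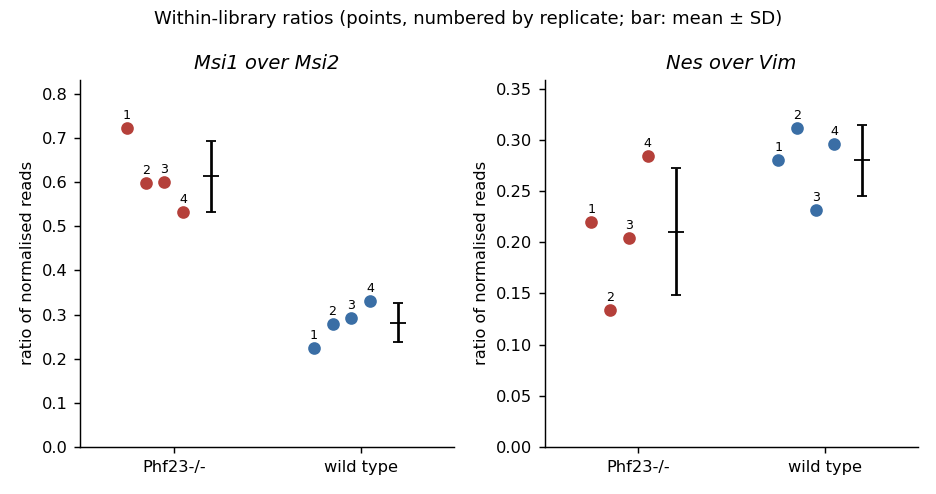
Ratio of normalised reads of Msi1 over Msi2 and of Nes over Vim within each library, with libraries labelled Phf23-/- left of WT, points numbered by replicate, and the mean ± SD of 4 libraries as a bar. The Msi1 over Msi2 ratio lies between 0.532 and 0.723 in the libraries labelled Phf23-/- and between 0.225 and 0.331 in WT libraries, while the Nes over Vim ratios of the groups overlap.

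Neither filament gene passed the test. Vim (ENSMUSG00000026728, mm10 chromosome 2, 13573927 to 13582826, plus strand) had, in the libraries labelled Phf23-/- 1 to 4, 89077, 106638, 80994 and 71229.9 normalised reads, against 64931, 63467, 72713 and 70079 in WT 1 to 4. Only Phf23-/- 4 lay within the WT range, and without it Vim was called higher (log2 0.44, limma-trend FDR = 0.0109). With all 8 libraries Vim averaged 86985 ± 14997 and 67797 ± 4334 in the libraries labelled Phf23-/- and WT (SD, n = 4 each), with a log2 fold change of 0.35 ± 0.131 (95% interval 0.06 to 0.63, limma-trend FDR = 0.0633). Vim was called with the trend subtracted (log2 0.36, FDR = 0.0208) and by DESeq2 (log2 0.36, FDR = 0.0233), but replicates 3 and 4 alone gave 0.09 (FDR = 0.716). The subtraction used the longest annotated Vim transcript of 2926 nt, and the longest coding transcript of 2193 nt was not tried. Nes (ENSMUSG00000004891, mm10 chromosome 3, 87971078 to 87980451, plus strand), at 6126 nt one of the 2 longest transcripts of the set, had, in the libraries labelled Phf23-/- 1 to 4, 19543, 14292, 16508 and 20267 normalised reads, against 18204, 19809, 16831 and 20775 in WT 1 to 4. The Nes groups overlapped, with Phf23-/- 2 lowest, and the log2 fold change of -0.11 (95% interval -0.38 to 0.17, limma-trend FDR = 0.552) became 0.06 with the trend subtracted (FDR = 0.648) and was -0.03 with replicates 3 and 4 alone (FDR = 0.906).

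Slc1a3 (ENSMUSG00000005360, mm10 chromosome 15, 8634124 to 8710764, minus strand), the glutamate transporter gene, had the smallest difference of the 10 on deposited values. It had, in the libraries labelled Phf23-/- 1 to 4, 15971, 16339, 17372 and 19045 normalised reads and 19180.3, 18284, 15867 and 15856 in WT 1 to 4. The ranges coincided almost entirely, and the estimated log2 fold change came to -0.01 (95% interval -0.24 to 0.22, limma-trend FDR = 0.964), or 0.18 with the trend subtracted (FDR = 0.0582) and 0.20 with replicates 3 and 4 alone (FDR = 0.277). Prom1 (ENSMUSG00000029086, mm10 chromosome 5, 43993620 to 44102032, minus strand), the CD133 gene and the lowest of the 10 per length, had, in the libraries labelled Phf23-/- 1 to 4, 322, 199, 264 and 343 normalised reads and 264, 240.0, 228 and 229 in WT 1 to 4. Its libraries labelled Phf23-/- lay on both sides of the WT range, with a log2 fold change of 0.20 (95% interval -0.15 to 0.56, limma-trend FDR = 0.375). Leaving out 1 library gave 0.10 without Phf23-/- 4 to 0.36 without Phf23-/- 2, and the covariate gave 0.61 (FDR = 0.263). It was at 0.36 with the trend subtracted (FDR = 0.0853) and at 0.40 with replicates 3 and 4 alone (FDR = 0.114). An annotated antisense gene shares 424 exon bases with Prom1, with the same limit as for Hopx.

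Nr2e1 (ENSMUSG00000019803, mm10 chromosome 10, 42561963 to 42583632, minus strand), the TLX gene, had, in the libraries labelled Phf23-/- 1 to 4, 466, 529, 682 and 652 normalised reads and 613, 529, 494 and 563 in WT 1 to 4. Its groups overlapped, with the 2 highest and the lowest values all in libraries labelled Phf23-/- (log2 fold change 0.07, 95% interval -0.22 to 0.36, limma-trend FDR = 0.734). With the trend subtracted it was at 0.04 (FDR = 0.848), and in replicates 3 and 4 alone at 0.34 (FDR = 0.0891). Ednrb (ENSMUSG00000022122, mm10 chromosome 14, 103814625 to 103844402, minus strand), the endothelin receptor gene, had, in the libraries labelled Phf23-/- 1 to 4, 15490.4, 18246, 18179.6 and 18737 normalised reads and 17181, 16587, 16172 and 14421 in WT 1 to 4. Apart from Phf23-/- 1, its libraries labelled Phf23-/- lay above all WT libraries, with an estimated log2 fold change of 0.13 (95% interval -0.09 to 0.36, limma-trend FDR = 0.353). Ednrb was called higher with the trend subtracted, at 0.32 ± 0.0675 (FDR = 0.00603), and was at 0.27 with replicates 3 and 4 alone (FDR = 0.0962).

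**Figure D4:**
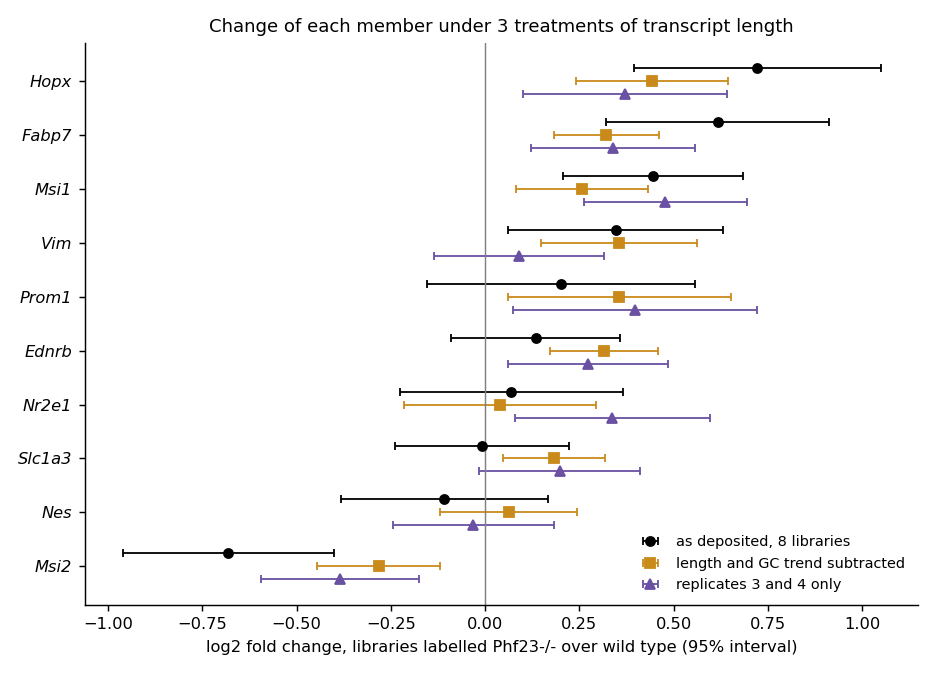
Log2 fold change of each of the 10 genes in the libraries labelled Phf23-/- over WT libraries with its 95% interval, from the deposited values of 8 libraries, with the length and GC trend subtracted, and from replicates 3 and 4 alone. Hopx, Fabp7 and Msi1 lie above 0 and Msi2 below 0 in all 3, with the deposited values farther from 0 than the trend-subtracted ones for these 4 genes.

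After subtraction of the length and GC trend, 5 of the 10 were called higher (Fabp7, Hopx, Msi1, Vim and Ednrb) and 1 lower (Msi2), beside 10.6% and 7.87% of all genes, and their median log2 fold change was 0.29, beside -0.00413 over all genes. Replicates 3 and 4 alone gave 2 higher (Fabp7 and Msi1) and 1 lower (Msi2), beside 4.61% and 4.54% of all genes. With 2 libraries per group, the FDR of that fit comes mainly from the variance pooled over all genes. Entering each library's length slope as a covariate, limma-trend called 0 of the 10 higher and 0 lower, beside 0.656% and 0.438% of all genes. The 5 with an unadjusted p under 0.05 were Msi1, Prom1, Slc1a3, Nr2e1 and Ednrb. Log2 fold changes were 0.17 for Fabp7, 0.17 for Hopx, 0.55 for Msi1 and -0.23 for Msi2. The 95% intervals of Fabp7, Hopx and Msi2 included 0. In that fit Msi1 had the lowest FDR of the 10, at 0.0979. The slopes did not overlap between the groups, at -0.31 to 0.04 in libraries labelled Phf23-/- and 0.06 to 0.26 in WT libraries. The covariate fit therefore cannot tell a difference by length from a difference by label. Against all genes of like length, 9 of the 10 lay above the median of their length class, and 5 lay inside its interquartile range. Those 5 were Fabp7, Hopx, Nes, Slc1a3 and Nr2e1.

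**Figure D5:**
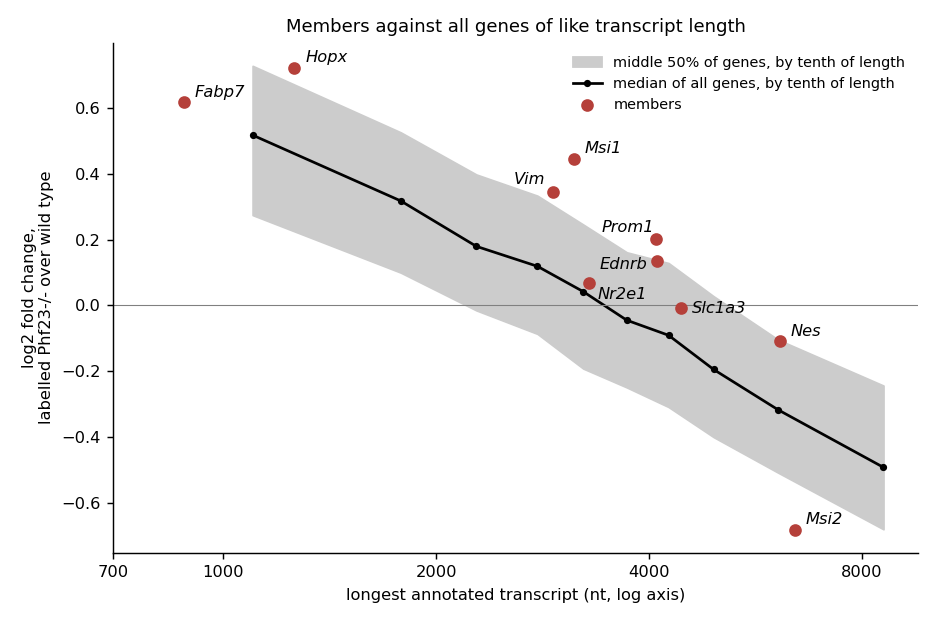
Log2 fold change in the libraries labelled Phf23-/- over WT libraries against the longest annotated transcript in nt (log axis), with the 10 genes as points, and the median (line) and interquartile range (band) of all genes averaging 10 normalised reads or more, drawn at the median of each of 10 length classes. The line falls from 0.52 in the shortest class to below 0 in the longest, and Msi2 is the only one of the 10 genes below it.

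Spread between libraries was larger in those labelled Phf23-/- for 8 of the 10 genes. The coefficient of variation of normalised reads ran from 8.01% for Slc1a3 to 22.9% for Prom1 in the libraries labelled Phf23-/-, against 6.39% for Vim to 11.8% for Hopx in WT libraries. The exceptions were Msi1 and Slc1a3.

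A list of 22 other radial glia and neural stem cell genes, of which 22 were measured, had 7 called higher and 5 lower, beside 14.8% of all genes in each direction, with a median log2 fold change of 0.10. The same shares of all genes stand beside the counts of the smaller lists that follow. On deposited values the Notch target gene Hes5 rose the most of them, with 1523 ± 398 normalised reads in the libraries labelled Phf23-/- and 472 ± 70.8 in WT libraries (SD, n = 4 each, log2 1.67, limma-trend FDR = 0.000332). Id4, an inhibitor of basic helix-loop-helix factors, rose with 169 ± 12.5 and 90.5 ± 6.42 normalised reads in the libraries labelled Phf23-/- and WT (log2 0.89, FDR = 0.00249). The matrix glycoprotein gene Tnc fell with 13837 ± 1827 and 25252 ± 2007 in the same groups (log2 -0.87, FDR = 0.000968), and the glutamine synthetase gene Glul rose with 7269 ± 544 and 5002 ± 212 (log2 0.54, FDR = 0.00413). With the trend subtracted 5 of the list were called higher and 3 lower, beside 10.6% and 7.87% of all genes. Id4 then led (log2 1.06, FDR = 0.000186), and Hes5 was no longer called (log2 1.01, FDR = 0.0839), although it was called with the covariate (log2 2.12, FDR = 0.000434). The count of lower calls moved with that over all genes when 1 library was left out. It was 1 without Phf23-/- 1 (6.02% of all genes called lower), 2 without WT 1 or WT 2 (7.0% and 6.78%) and 8 without Phf23-/- 4 (18.9%). It was 3 without Phf23-/- 2, Phf23-/- 3 or WT 3, where 10.5%, 11.4% and 12.2% of all genes were called lower.

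Other intermediate filament genes numbered 11 measured, with 1 called higher, 1 lower and a median log2 fold change of -0.24. Gfap, the filament gene of astrocytes, rose with 536 ± 76.3 and 283 ± 30.7 normalised reads in the libraries labelled Phf23-/- and WT (SD, n = 4 each, log2 0.91, limma-trend FDR = 0.00165). Ina, which encodes the neuronal filament protein alpha-internexin, fell with 172 ± 20.5 and 243 ± 23.5 (log2 -0.50, FDR = 0.0184). The other fatty acid binding protein genes measured, Fabp5 and Fabp3, both rose, as Fabp7 did (2 of 2 called higher, median log2 0.85). Fabp5, the epidermal form that neural progenitors also express, had 13324 ± 1989 normalised reads in the libraries labelled Phf23-/- and 7719.6 ± 727 in WT libraries (log2 0.78, FDR = 0.00282, and 0.78 with the trend subtracted, FDR = 0.000334). Fabp3 had 95.2 ± 18.6 and 51.6 ± 18.6 in the same groups (log2 0.93, FDR = 0.0230, and 0.34 with the trend subtracted, FDR = 0.273). The subtraction used the longest annotated transcript, which is 3238 nt for Fabp5, against 823 nt for Fabp3 and 880 nt for Fabp7. A shorter Fabp5 transcript was not tried, so the unchanged 0.78 of Fabp5 depends on the transcript chosen.

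Of the other Slc1 transporter genes 5 were measured, with 0 called higher, 1 lower and a median log2 fold change of 0.03. The astrocyte glutamate transporter gene Slc1a2 was the one that fell, with 3793 ± 497 and 4957 ± 717 normalised reads in the libraries labelled Phf23-/- and WT (SD, n = 4 each, log2 -0.38, limma-trend FDR = 0.0365). Its trend-subtracted change was 0.15 (FDR = 0.122). Around Ednrb, all 3 endothelin pathway genes measured of 7 listed fell, while Ednrb itself was not called on deposited values (0 higher, 3 lower, median log2 -0.54). Ece2, which encodes an endothelin-converting enzyme, had 42.0 ± 12.9 normalised reads in the libraries labelled Phf23-/- and 96.4 ± 21.5 in WT libraries (log2 -1.21, FDR = 0.00792). Its relative Ece1 had 1134 ± 182 and 1509.9 ± 81.9 (log2 -0.42, FDR = 0.0203), and the other receptor gene, Ednra, had 84.7 ± 10.1 and 126 ± 32.9 (log2 -0.54, FDR = 0.0479) in the same groups. With the trend subtracted Ece2 and Ece1 remained called (FDR = 0.00368 and 0.00618) and Ednra did not (FDR = 0.0767). Of these 3 genes, 1 was called lower with replicates 3 and 4 alone and 0 with the covariate by limma-trend, beside 4.54% and 0.438% of all genes.

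Among 9 genes of Nr2e1 corepressors and targets 1 was called higher and 1 lower (median log2 fold change -0.01). The cell cycle inhibitor gene Cdkn1a, which TLX represses and whose mRNA Musashi 1 binds, rose with 13797 ± 1171 and 9662 ± 304 normalised reads in the libraries labelled Phf23-/- and WT (SD, n = 4 each, log2 0.51, limma-trend FDR = 0.00560). The corepressor gene Rere fell with 2261 ± 504 and 3008 ± 142 normalised reads in the libraries labelled Phf23-/- and WT (log2 -0.44, FDR = 0.0351), and with the trend subtracted it was no longer called (log2 -0.14, FDR = 0.171). Of 4 Musashi targets and partners, Cdkn1a was the 1 called higher and 0 were lower (median log2 0.22). Numb, whose mRNA Musashi 1 binds, averaged 371 ± 45.3 and 310.3 ± 58.3 normalised reads in the libraries labelled Phf23-/- and WT, a difference that did not pass the test (log2 0.27, FDR = 0.189).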

How the data were processed

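The data were bulk RNA-seq of 8 libraries, 4 labelled Phf23-/- and 4 labelled WT. The submitters' processing notes name the aligner STAR 2.7.1a, the mm10 build, fastp 0.23.4, FastQC 0.12.1 and DESeq2 1.38.3. Not given in the sources used here are the read counter, annotation, strand setting and any gene filter. The deposited signal values were read counts that the authors had scaled by 1 factor for each library (0.889 to 1.07): 100% of values in each library were whole multiples of 1 step at a tolerance of 1e-04 reads. Of 15602 rows, 64 repeated another and were dropped. The lowest gene mean was 1.30 normalised reads, and no filter was applied.

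Symbols, positions and transcript lengths came from GENCODE M21 (the same assembly as mm10), with 15531 genes matched. Because values were normalised, limma-trend (limma 3.58.1, R 4.3.3, robust empirical Bayes) was fitted to log2(value + 1) over all genes, with genotype as the only term and Benjamini-Hochberg adjustment. Fold changes on this scale understate changes of genes with few reads. Measures of 1 value per library used a two-sided exact permutation test. Alternatives were edgeR 4.0.16 and DESeq2 1.42.0 on recovered reads, TMM and library-size scaling, a pseudocount of 0.1, a minimum mean of 10, leaving out each library, a replicate block, and the treatments of transcript length. For these, each library had a loess trend (span 0.3) on length and GC removed, the length slope over 13265 genes entered as a covariate, or replicates 1 and 2 of both groups were left out. The limma-trend, edgeR and DESeq2 fits were run on simulated data. A pass mark was set only for data without length slopes, so the treatments of transcript length had none. The recovered-read edgeR test called 4683 of 13324 genes.

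The members and lists were chosen with earlier results of these data known. All 10 members are named, up to 4 called genes with the lowest FDR from each further list, and up to 3 marker genes of the highest mean from each marker list. Depth was 15647304 to 19462516 reads per library. Sox2 and Pax6 are named as the check of the cell type, and Numb and Neurog2 outside these rules after their values were seen. Of the lists, 1 gene is not reported here.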

Additional observations from a re-analysis of the deposited data

How the results depend on the processing

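The 4 calls among the 10 genes (3 higher, 1 lower) kept their counts within 1.5 times under TMM scaling, library size only, a pseudocount of 0.1, a minimum mean of 10, edgeR, DESeq2 and leaving out any 1 library (3 to 4 higher, 1 lower). With the length and GC trend subtracted there were 5 higher, and with the length slope as a covariate 0 higher and 0 lower by limma-trend. In the covariate fit 5 of the 10 had an unadjusted p under 0.05, and of the 4 called genes only Msi1 was among them. Because the length slopes did not overlap between the groups, that fit cannot tell length from label. Over the other 22 stem cell genes, against 7 higher and 5 lower, the lower calls were 3 with the trend subtracted and 2 when the 4 libraries with the steepest slopes were left out, the covariate left 1 higher and 1 lower, and leaving out 1 library gave 1 to 8 lower. The Msi1 over Msi2 difference of 1.13 was 0.86 without those 4 libraries, 0.54 with the trend subtracted and 1.02 to 1.21 when any 1 library was left out, where 4 against 3 libraries cannot give an exact permutation p under 0.0571. Deviations of same-numbered libraries from their group means correlated at -0.33, -0.13, -0.19 and -0.28. Unlike-numbered libraries ran from -0.33 (Phf23-/- 4 with WT 3) to 0.37 (Phf23-/- 4 with WT 1). These values still held the length trend, so the check cannot settle whether libraries were paired. A replicate block gave 0 higher and 0 lower of the 10, beside 0.972% and 1.17% of all genes (FDR from 0.0538 to 0.0612 for the 4 genes, which alone had an unadjusted p under 0.05) and 2 higher and 1 lower of the 22, and the replicate block with the trend subtracted gave 3 higher and 1 lower of the 10, beside 5.56% and 3.9% of all genes, 4 higher and 2 lower of the 22 and an Msi1 over Msi2 difference of 0.54. Signs turned only for genes that were not called: Nes was at 0.062 with the trend subtracted (also with the block) and 0.082 with the covariate, Vim at -0.053 with the covariate, and Slc1a3 at 0.18 with the trend subtracted (also with the block), 0.26 with the covariate, 0.20 without the 4 libraries and -0.058 to 0.044 without any 1 library. Nr2e1 ran from -0.012 to 0.17 without any 1 library. The causes were not tested. Of 20 groups of 4 libraries, 0 held an outlying library.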
